A study of Homo sapiens with 18 samples.

Results

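The unfolded protein and amino acid stress genes examined here are a set of 35 genes taken by name, 35 of the 58051 genes counted in each library, and all 35 had enough reads to be tested. They were followed in 18 RNA sequencing libraries of THP-1 cells, a long-kept line from a human monocytic leukaemia that phorbol ester (PMA) turns towards macrophages. Cells carried 1 of 3 retroviral MSCV vectors with GFP. These were the vector alone (IRES), a vector with the MYC-tagged active intracellular part of NOTCH1 (NIC1), or a vector with DNMAML, a dominant-negative Mastermind-like protein that holds the Notch transcription complex inactive. In every group, cells had been transduced, sorted for GFP and kept in PMA at 5 ng/ml for 48 h. Each construct was then left unstimulated or given IL-4 at 20 ng/ml for 3 h, which makes 6 groups of 3 libraries. The 3 libraries of a group carry the experiment numbers 1, 2 and 3 in their labels, and each number occurs 1 time in each group. The labels do not say what set the numbered experiments apart, and the introduced genes are driven by a viral promoter, not by their own.

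The endoplasmic reticulum (ER) folds secreted and membrane proteins, and an excess of unfolded protein there is sensed by IRE1 (gene ERN1), PERK (gene EIF2AK3) and ATF6. IRE1 splices XBP1 mRNA, ATF6 is cut to release a transcription factor, and PERK phosphorylates eIF2, which slows translation in general while favouring that of ATF4. Other kinases reach the same eIF2 step when amino acids run short, so ATF4 targets for amino acid synthesis and transport answer to both kinds of stress. Macrophages are secretory cells, and this machinery is present in them without added stress.

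Depth lay between 12410668 and 15099788 reads in genes per library. Levels are given in CPM, counts per 1e+06 reads in genes with library sizes scaled by the TMM method of edgeR. In 16 libraries between 21067 and 21557 genes had a read. The third IRES library without IL-4 (23179 genes) and the third DNMAML library with IL-4 (25322 genes) stood apart. The DNMAML library also had the highest share of reads that named no gene (30.9%). Its sum of mitochondrially encoded genes was the lowest (4888 CPM). Tests of the members were repeated without both libraries. Shares of spread, counts of libraries that did not overlap and results of other gene lists used all 18. Summed levels of CISH, SOCS1 and ALOX15, which IL-4 induces, lay between 3.20 and 5.10 CPM without IL-4 and between 149 and 215 CPM with it. HES4, a check of the Notch vectors, was higher in NIC1 than in IRES cells by 2.14 (unstimulated) and 1.81 (IL-4) on the log2 scale. Between DNMAML and IRES cells HES4 did not pass the test. NOTCH1 and MAML1, the other checks, passed there only with the experiment number in the model. Monocyte and macrophage markers (8 of 8 detected, summed 724 to 1153 CPM) were present in every library. Of other cell types, the sums were 75.2 to 158 CPM for 6 T cell genes, 89.8 to 192 CPM for 5 fibroblast genes, at most 11.2 CPM for 5 B cell genes, at most 3.35 CPM for 4 epithelial genes and at most 0.438 CPM for 4 erythroid genes, with HBB at 0 in all 18 libraries. The cells were of the THP-1 line and sorted for GFP, so RNA of another type's markers does not show that such cells were present. In bulk RNA, fewer cells of a type and less RNA per cell cannot be told apart.

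Promoters of the members are shown here because several hold the elements through which this response is known to act. RefSeq start-site windows of 300 bases (250 before and 50 after the start, GRCh38.p14) were available for 33 of the 35 members, 10 of them with more than 1 window. Windows of 1 chromosome, which holds none of the members, were left out of the search and of all counts over genes. Both strands were searched for the ER stress response element ERSE (CCAAT, any 9 bases, CCACG), which NF-Y and ATF6 bind, and for its short form ERSE-II (ATTGG, any 1 base, CCACG). ERSE was found in 7 of 33 members (21.2%) and in 25 of all 27305 genes with a searched window (0.0916%). ERSE-II was found in 3 of 33 members (9.09%) and 19 of all genes (0.0696%). The members were taken by name as genes of this response, and the counts over all genes include them. Their higher shares therefore describe the choice of genes and are not a result of these libraries. The members with ERSE were HSPA5, HSP90B1, CALR, CANX, CRELD2, PDIA6 and XBP1, and those with ERSE-II were HYOU1, SDF2L1 and HERPUD1. Stretches with ERSE follow, with both fixed parts in capitals and 10 flanking bases on each side, read 5′ to 3′ on the strand named.
HSPA5 (chr9:125241381-125241419, minus strand): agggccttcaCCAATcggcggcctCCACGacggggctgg
CALR (chr19:12938374-12938412, minus strand): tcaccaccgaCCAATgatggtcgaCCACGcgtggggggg
CRELD2 (chr22:49918544-49918582, minus strand): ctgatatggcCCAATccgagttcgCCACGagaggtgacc
XBP1 (chr22:28800593-28800631, minus strand): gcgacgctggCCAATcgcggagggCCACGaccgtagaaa

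HYOU1 held ERSE-II at 2 places, the only member with more than 1 match to it, while HSP90B1 held ERSE at 2 places. The ERSE-II stretches show how ATTGG and CCACG, the same letters as in ERSE with the CCAAT part on the other strand, stand 1 base apart.
HYOU1 (chr11:119057370-119057400, plus strand): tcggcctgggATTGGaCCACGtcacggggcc
HYOU1 (chr11:119057264-119057294, plus strand): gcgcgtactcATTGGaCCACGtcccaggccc
SDF2L1 (chr22:21642104-21642134, minus strand): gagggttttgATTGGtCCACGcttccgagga
HERPUD1 (chr16:56932015-56932045, plus strand): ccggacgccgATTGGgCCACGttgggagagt

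The composite site TGATGNAA, which dimers of ATF4 with C/EBP proteins bind in amino acid response genes, was found in HERPUD1, CREB3L2, CEBPG, CHAC1 and ASNS. That was 5 of 33 members (15.2%), against 1217 of 27305 genes (4.46%). The match in CREB3L2 lay after the start site and the other 4 before it. CHAC1, PHGDH and PSAT1 differ most between experiments 2 and 1 below, and of these CHAC1 holds the letters TGATGNAA in its window and PHGDH and PSAT1 do not. TGACGTG, a core that ATF6 and XBP1 can bind, was found in HYOU1 alone (3.03% of members, 2.4% of all genes), where it overlaps an ERSE-II. A match of this kind describes the letters and does not show that a factor was bound.
CHAC1 (chr15:40953252-40953279, minus strand): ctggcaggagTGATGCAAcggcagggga
ASNS (chr7:97872459-97872486, minus strand): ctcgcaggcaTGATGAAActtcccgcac
CEBPG (chr19:33374061-33374088, plus strand): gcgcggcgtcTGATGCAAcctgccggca

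HERPUD1 was the member with both an ERSE-II and a TGATGNAA site. The 250 bases before its start (plus strand) are given in full beside those of HSPA5 (minus strand), which has an exact match to ERSE. Capitals mark exact matches only, and forms of an element that differ in a fixed letter or in spacing were not searched for. TTGCATCA in HERPUD1 is the TGATGNAA site read on the other strand.
HERPUD1 (chr16:56931892-56932141): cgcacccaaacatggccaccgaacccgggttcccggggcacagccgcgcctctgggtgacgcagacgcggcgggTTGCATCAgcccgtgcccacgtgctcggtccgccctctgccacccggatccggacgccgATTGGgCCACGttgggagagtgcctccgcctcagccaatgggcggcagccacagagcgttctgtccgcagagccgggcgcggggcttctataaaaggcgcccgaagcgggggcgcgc
HSPA5 (chr9:125241344-125241593): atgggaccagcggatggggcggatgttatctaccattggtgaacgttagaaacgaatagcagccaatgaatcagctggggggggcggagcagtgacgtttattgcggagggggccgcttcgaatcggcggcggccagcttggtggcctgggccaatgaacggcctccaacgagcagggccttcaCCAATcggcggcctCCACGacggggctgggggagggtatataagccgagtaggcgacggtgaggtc

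Levels per kilobase of exon were highest for the abundant ER chaperones. The mean over 18 libraries was 1037 CPM per kb for CALR (calreticulin, a lectin chaperone), 235 for HSP90B1 (GRP94), 210 for HSPA5 (BiP, the main ER Hsp70) and 160 for CANX (calnexin). The disulfide isomerases PDIA6, PDIA4 and PDIA3 followed at 133, 126 and 125 CPM per kb, and ATF4 at 85.3 CPM per kb was the most abundant transcription factor of the set. The lowest levels per kb were those of EIF2AK3 (3.78), ERN1 (2.38), PHGDH (1.54) and CHAC1 (1.24).

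The experiment number, rather than the construct or IL-4, carried most of the spread of these genes. In an analysis of log2 CPM over 18 libraries, the experiment number held a median of 76.9% of the sum of squares of a member (range 9.95% to 96.8%), against 29.3% over all 15037 genes tested. It was the largest of the sources for 30 of 35 members (85.7%), against 39.8% of all genes. The residual held a median of 8.31% for the members and 28.5% over all genes. Genes were not matched to the members for level, here or below, and the part of level in these contrasts was not tested. The construct was largest for ATF4 (39.1%) and SHMT2 (45.9%), IL-4 for CREB3L2 (68.8%), and the residual for SYVN1 (57.3%) and ATF6 (60.2%).

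**Figure D1:**
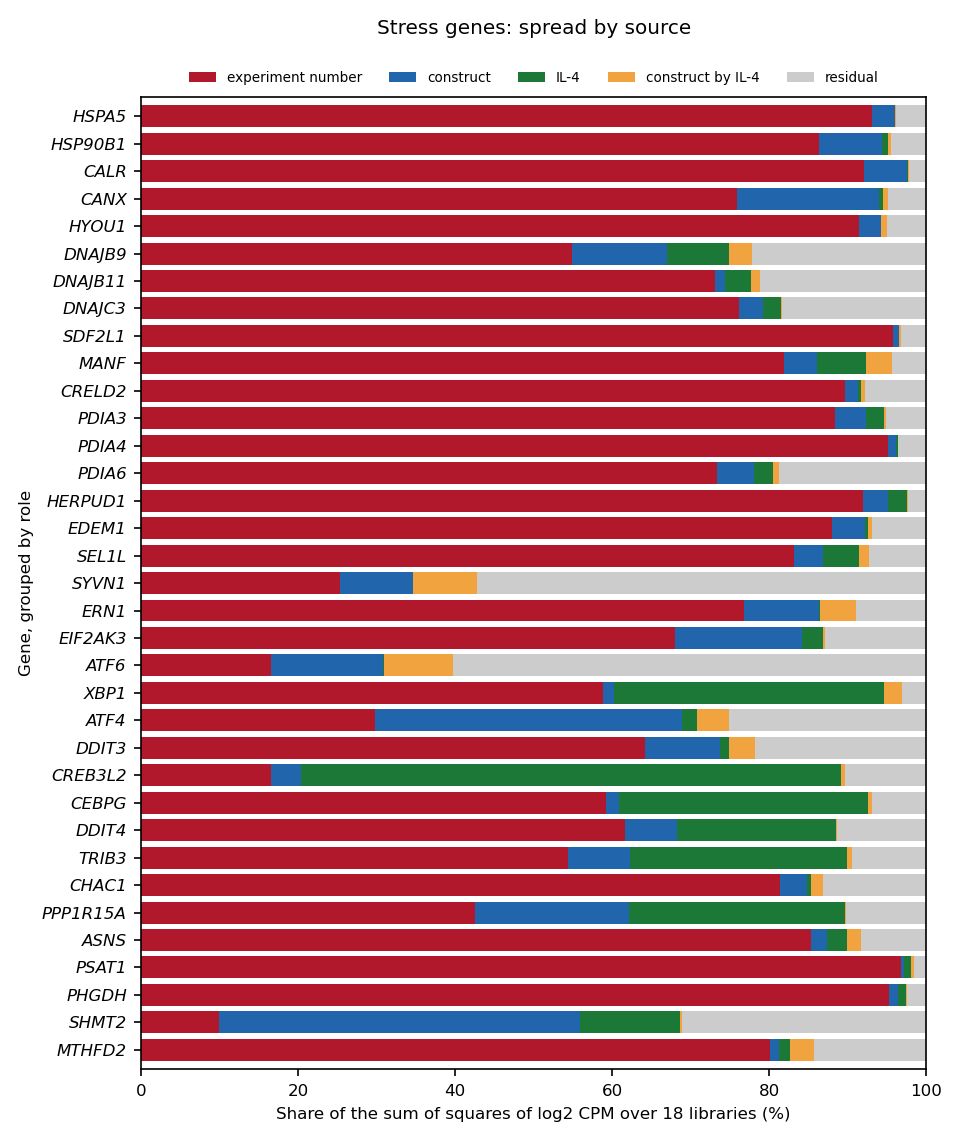
Share of the sum of squares of log2 CPM over 18 libraries (x axis, percent) held by experiment number, construct, IL-4, construct by IL-4 and residual, 1 bar per gene grouped by role. The experiment number is the largest part of the bar in 30 of 35 genes, and ATF4, SHMT2, CREB3L2, SYVN1 and ATF6 are the exceptions.

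Most of these genes were lower in experiment 2 than in experiments 1 and 3. In experiment 2, 32 of 35 members differed from experiment 1 at an adjusted p under 0.05 (edgeR's quasi-likelihood test with the 6 groups and the experiment numbers in 1 model, Benjamini-Hochberg over 15037 genes). Of these, 30 were lower and 2, ERN1 and PPP1R15A, were higher. Such calls were common in this comparison, which reached 48.1% of all genes tested, with 23.1% of all genes lower. Each number stands for 1 experiment, so p-values between experiments, here and below, measure spread among the libraries inside them. They do not measure how much repeated experiments vary. The median log2 change was -0.44 over the members and 0.005 over all genes. All 6 libraries of experiment 2 lay below the other 12 for 24 members, as they did for 4.4% of all genes, and above the other 12 for ERN1, as for 4.72% of all genes. Compared group by group, 28 members were lower in experiment 2 than in experiments 1 and 3 in all 6 groups, and ERN1 and PPP1R15A were higher in all 6. The share of all genes with such a pattern was not counted, so these 2 counts have no background to be set against.

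**Figure D2:**
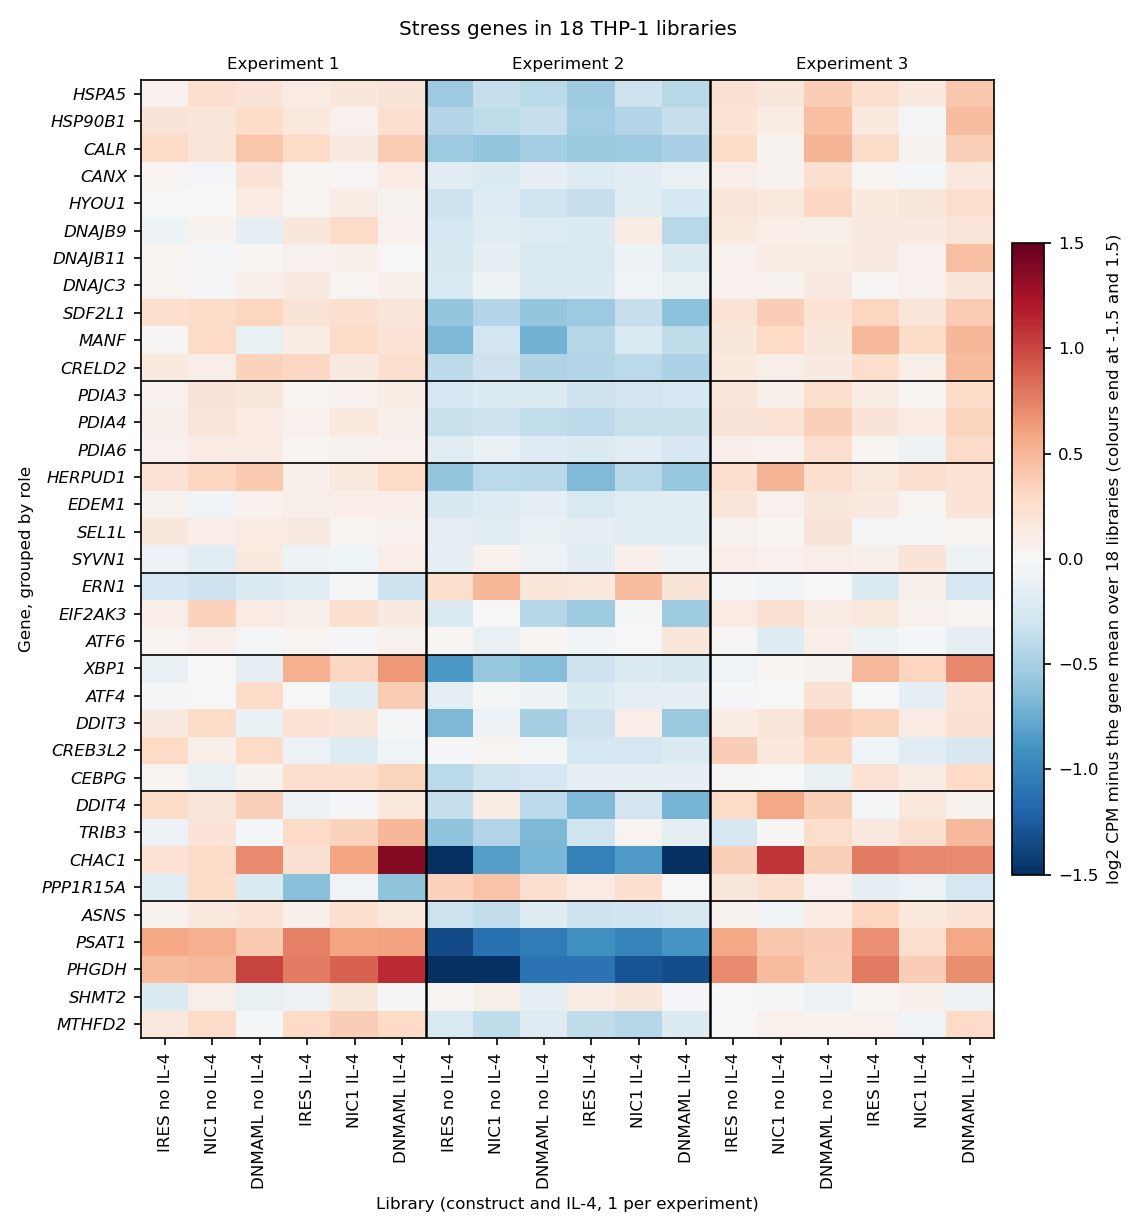
Level of each of the 35 genes (rows, grouped by role) in each of the 18 libraries (columns, grouped by experiment), as log2 CPM minus the gene's mean, with colours ending at -1.5 and 1.5. The 6 columns of experiment 2 are low for most rows, deepest for CHAC1, PSAT1 and PHGDH, and high for ERN1 and PPP1R15A.

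All 11 ER chaperones and cofactors were lower in experiment 2 than in experiment 1, by a median of -0.58 on the log2 scale. HSPA5 (ENSG00000044574, chromosome 9, 125234853 to 125241330, minus strand, GRCh38) ranged from 839 to 955 CPM in experiment 1 (median 912), 552 to 647 in experiment 2 (median 605) and 889 to 1067 in experiment 3 (median 946). No library of experiment 2 reached the lowest of the others, and the log2 change was -0.59 ± 0.0476 (SE, edgeR adjusted p = 4.07e-09). CALR (ENSG00000179218, chromosome 19, 12938578 to 12944489) moved most in this group, with 2988 to 3613 CPM (median 3325) in experiment 1, 1825 to 1942 (median 1865) in experiment 2 and 2815 to 3875 (median 3283) in experiment 3. Its log2 change was -0.81 ± 0.0489 (edgeR adjusted p = 9.6e-11). The experiment 2 libraries were also close to each other, spanning a narrower range than those of either other experiment.

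HSP90B1, whose product folds Toll-like receptors and integrins, ranged from 1127 to 1303 CPM in experiment 1, 752 to 850 in experiment 2 and 1060 to 1485 in experiment 3, a log2 change of -0.60 ± 0.0498 for experiment 2 against 1. The smaller chaperone cofactors followed. SDF2L1, a partner of BiP, fell by 0.76 ± 0.0546 on the log2 scale, from 43.5 to 47.8 CPM in experiment 1 to 25.1 to 30.2 in experiment 2. MANF, a secreted cofactor of BiP, ranged from 45.6 to 60.5, 30.2 to 41.9 and 55.5 to 69.9 CPM in experiments 1, 2 and 3, and CRELD2 from 44.7 to 52.7, 30 to 33.5 and 44.1 to 57.7 CPM. For each of these 4 genes all libraries of experiment 2 lay below the rest.

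The remaining chaperones moved less. HYOU1 (GRP170, a nucleotide exchange factor for BiP) ranged from 311 to 341 CPM, 246 to 279 and 346 to 388 in experiments 1, 2 and 3. CANX ranged from 980 to 1136, 855 to 922 and 978 to 1170 CPM. Among the J-domain partners of BiP, log2 changes were -0.24 for DNAJB9, -0.22 for DNAJB11 and, the smallest of the group, -0.20 ± 0.0407 for DNAJC3 (p58IPK, 165 to 184 CPM in experiment 1 against 143 to 163 in experiment 2). Libraries of experiment 2 overlapped the others only for DNAJB9 within this group. DNAJB9, DNAJB11 and CRELD2 share exon bases with genes on the other strand (PNPLA8 and THAP5, TBCCD1, and ALG12). The library kit does not mark strand, so reads from those shared bases could not be told apart. The counts of these genes are therefore uncertain.

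The 3 disulfide isomerases, which form and shuffle disulfide bonds, were all lower in experiment 2, by log2 changes of -0.45 ± 0.041 (PDIA4), -0.36 ± 0.0403 (PDIA3) and -0.26 ± 0.0485 (PDIA6). PDIA4 ranged from 425 to 458 CPM (median 434) in experiment 1, 310 to 328 (median 321) in experiment 2 and 443 to 520 (median 465) in experiment 3. PDIA6 ranged from 558 to 594 CPM (median 569), 456 to 506 (median 478) and 518 to 665 (median 570). The libraries did not overlap for any of the 3.

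Of the 4 genes for ER-associated degradation, which returns misfolded proteins to the proteasome, 3 were lower. HERPUD1 (ENSG00000051108, chromosome 16, 56932048 to 56944863), a scaffold of the degradation complex, ranged from 87.7 to 109 CPM (median 99.9), 52.9 to 63.1 (median 59.3) and 93.0 to 118 (median 99.0) in experiments 1, 2 and 3. Its log2 change of -0.75 ± 0.045 (edgeR adjusted p = 9.37e-11) was the largest of this group. EDEM1, a mannosidase-like lectin, and SEL1L, the adaptor of the ligase SYVN1, both changed by -0.25 on the log2 scale. SYVN1 itself ranged from 95.6 to 119 CPM, 96.0 to 113 and 102 to 123, with overlapping libraries and a log2 change of -0.03 ± 0.0554 (adjusted p = 0.653). SYVN1 lies over FAU on the same strand and MRPL49 on the other, so its count may hold or lack reads of those genes.

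The 3 sensors of unfolded protein did not move together. ERN1 (ENSG00000178607, chromosome 17, 64039142 to 64130819, minus strand) was higher in experiment 2, at 28.4 to 35.9 CPM (median 30), than in experiments 1 (20.6 to 24.9, median 21.7) and 3 (21.2 to 26.8, median 24.8). No library of experiment 2 overlapped the rest, and the log2 change was 0.50 ± 0.0593 (edgeR adjusted p = 6.62e-07). EIF2AK3 went the other way, from 21.5 to 25.7 CPM in experiment 1 to 14.0 to 20.1 in experiment 2 and 20.8 to 23.8 in experiment 3, with a log2 change of -0.45 ± 0.069. ATF6 ranged from 156 to 166, 146 to 178 and 140 to 169 CPM, a log2 change of -0.02 ± 0.0455 (adjusted p = 0.801). These are levels of mRNA and do not report splicing, cleavage or phosphorylation.

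All 5 transcription factors were lower in experiment 2. XBP1 (ENSG00000100219, chromosome 22, 28794555 to 28800597, minus strand), the factor spliced by IRE1, ranged from 63.1 to 110 CPM (median 78.1), 38.3 to 60.6 (median 51.7) and 67.4 to 115 (median 80.0) in experiments 1, 2 and 3. The highest library of experiment 2, with IL-4, was still below the lowest of the others, without IL-4, and the log2 change was -0.68 ± 0.0531 (edgeR adjusted p = 2.77e-09). DDIT3 (CHOP, a pro-death factor) changed by -0.44 ± 0.0964, CEBPG, a dimer partner of ATF4, by -0.36 ± 0.0426, and ATF4 by -0.20 ± 0.0536. The smallest change was that of CREB3L2, an ER-membrane factor of the secretory pathway, at -0.17 ± 0.0483. DDIT3 overlaps MARS and MBD6 on the other strand, which had more reads than DDIT3 in these libraries, so its count is uncertain.

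Among the 4 effectors, CHAC1 moved most. CHAC1 (ENSG00000128965, chromosome 15, 40952962 to 40956519), a glutathione-degrading enzyme and ATF4 target, ranged from 2.47 to 5.52 CPM (median 2.90) in experiment 1, 0.505 to 1.32 (median 1.11) in experiment 2 and 2.71 to 4.48 (median 3.48) in experiment 3. Its log2 change was -1.75 ± 0.236 (edgeR adjusted p = 4.16e-06), with a wide error because its counts were low. TRIB3, a pseudokinase that restrains ATF4, changed by -0.55 ± 0.0759, and DDIT4, an inhibitor of mTORC1, by -0.52 ± 0.0772. PPP1R15A (GADD34), which brings phosphatase back to eIF2 and so ends the response, was higher in experiment 2, at 74.6 to 100 CPM (median 88.1) against 48.1 to 89.4 (median 64.9) and 61.9 to 87.7 (median 73.5). Its libraries overlapped between experiments, while the log2 change within groups was 0.46 ± 0.0609 (edgeR adjusted p = 4.85e-06).

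PHGDH and PSAT1 of serine synthesis were, with CHAC1, the 3 members that changed most between experiments 2 and 1. PHGDH (ENSG00000092621, chromosome 1, 119648411 to 119744226), the first enzyme of that pathway, ranged from 16.3 to 25.3 CPM (median 20.7) in experiment 1, 3.58 to 5.42 (median 4.71) in experiment 2 and 15 to 20 (median 17.5) in experiment 3. PSAT1 (ENSG00000135069, chromosome 9, 78297143 to 78330093), the next enzyme, ranged from 17.7 to 22.7 (median 20.3), 5.34 to 7.29 (median 6.64) and 16.2 to 21.7 CPM (median 19). Both stood far below the other experiments in every group, with log2 changes of -2.14 ± 0.113 for PHGDH (edgeR adjusted p = 2.3e-11) and -1.62 ± 0.0772 for PSAT1 (edgeR adjusted p = 4.38e-12). MTHFD2, a mitochondrial folate enzyme, changed by -0.53 ± 0.0621 and ASNS, asparagine synthetase, by -0.44 ± 0.0533. SHMT2, which takes serine into mitochondrial one-carbon metabolism, was at 83.0 to 108, 87.4 to 107 and 90.3 to 101 CPM, a log2 change of 0.07 ± 0.0439 (adjusted p = 0.174).

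**Figure D3:**
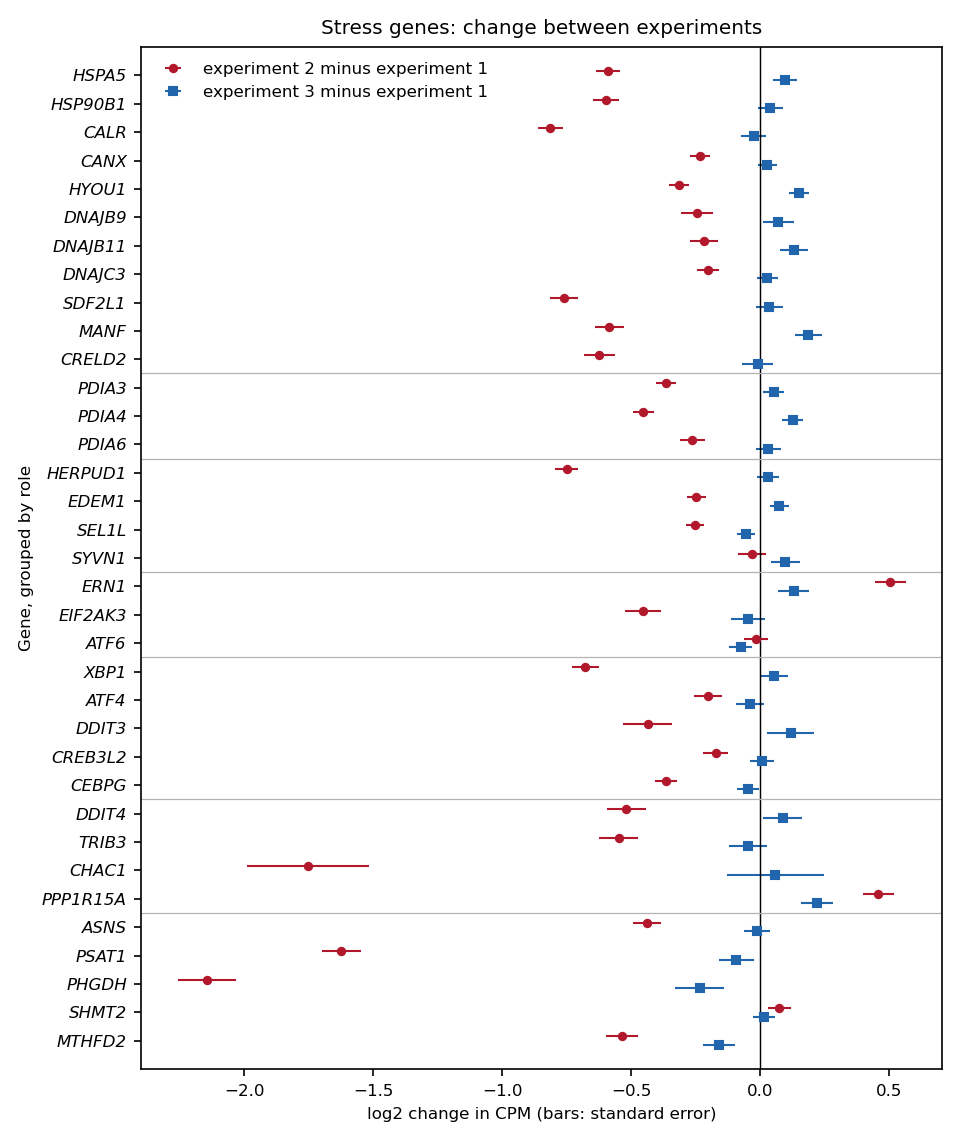
log2 change of each of the 35 genes (rows, grouped by role) in experiment 2 (circles) and experiment 3 (squares) against experiment 1, with standard errors. Experiment 3 lies near 0 throughout, while experiment 2 reaches -2.14 for PHGDH and is above 0 only for ERN1 and PPP1R15A among the genes called.

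Against experiment 1, experiment 3 had 3 members called, all higher, where 6.81% of all genes were called and 3.78% were higher. These were HYOU1 (log2 change 0.15, adjusted p = 0.0231), MANF (0.19, adjusted p = 0.0383) and PPP1R15A (0.22, adjusted p = 0.0352). Without the 2 libraries that stood apart none of the 3 was called, at adjusted p = 0.146, 0.2175 and 0.201. The count was also 0 without the IRES library of experiment 1 or of experiment 3 lacking IL-4, the DNMAML library of experiment 3 lacking IL-4, the IRES library of experiment 3 with IL-4 or the DNMAML library of experiment 1 with IL-4. It was 1 without the IRES library of experiment 1 or the DNMAML library of experiment 3 with IL-4. Leaving out the DNMAML library of experiment 1 lacking IL-4 left 2 members, of which HYOU1 was 1. The median over the members was 0.03.

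Between experiments 3 and 2, which share their libraries with both comparisons above, 30 members were higher in experiment 3 and 2 lower, where 43.6% of all genes were called and 20.8% were higher. The median over the members was 0.42. Experiment 2 against 1 kept 32 members under each of 22 alternatives, and experiment 3 against 2 gave 31 to 33. ATF4 lost its call between experiments 3 and 2 without both libraries that stood apart or without either DNMAML library of experiment 2 (edgeR adjusted p up to 0.0773).

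Other features of the libraries differed between experiments as well. The 13 mitochondrially encoded genes summed to 24634 to 27547 CPM in experiment 2, 11555 to 15937 in experiment 1 and 4888 to 14488 in experiment 3, and 12 of 13 were higher in experiment 2 than 1. Macrophage markers summed to 906 to 1153, 724 to 994 and 840 to 1044 CPM in experiments 1, 2 and 3, with 5 of 8 lower in experiment 2 than 1. Fibroblast markers summed to 89.8 to 139, 143 to 192 and 113 to 125 CPM, with 2 of 5 higher. The part of these differences in the stress gene levels was not tested.

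Genes of the same pathways outside the set also moved, though less uniformly. Of 52 other ER folding, translocation and degradation genes, 26 were lower and 4 higher in experiment 2 than 1 (57.7% called, against 48.1% of all genes), with a median of -0.11. KDELR3, which retrieves ER proteins, changed by -0.79, DERL3, a degradation factor, by -0.63 and UBE2J1, a ubiquitin-conjugating enzyme, by -0.44, while EDEM3 changed by 0.36. Of 37 other genes of the integrated stress response that were tested, 20 were lower and 10 higher (81.1% called), with a median of -0.14. NUPR1 (-2.24), ALDH1L2 (-1.90) and STC2 (-1.75) changed by as much as PHGDH and PSAT1, whereas VEGFA (1.01), the leucine transporter SLC7A5 (0.35) and the cystine transporter SLC7A11 (0.26) were higher.

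The machinery around eIF2 and the heat shock genes of other compartments had calls in both directions, at shares near the 48.1% of all genes called. Of 17 genes for eIF2 kinases, eIF2, eIF2B and phosphatase subunits, 6 were lower and 3 higher (52.9% called), with EIF2AK2 (PKR) lower by 1 on the log2 scale. Of 14 other genes of the sensor pathways, 2 were lower and 6 higher (57.1%), CREB3L1 most at 0.83. Among 18 cytosolic and mitochondrial heat shock genes, 2 were lower and 5 higher (38.9%), with a median of 0.03.

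Few members passed the test after 3 h of IL-4. Without the experiment number in the model, 0 of 35 members were called in IRES, NIC1 or DNMAML cells, where 2.93%, 3.05% and 3.28% of all genes were called. An unadjusted p under 0.05 was reached by 1 member, CREB3L2, in each construct, and by 1519, 1513 and 1633 of all 15037 genes. DESeq2 called CREB3L2 in IRES and DNMAML cells (adjusted p = 0.0371 and 0.0333) and none in NIC1 cells. The median change over the members was 0.00 in IRES, -0.01 in NIC1 and 0.01 in DNMAML cells on the log2 scale. Because libraries of the same number resembled each other, the response was also tested within experiments, with the number as a block. That model called 5, 4 and 6 of 35 members in IRES, NIC1 and DNMAML cells. Over all genes it called 9.04%, 8.8% and 9.95%, a smaller share than that of the members in each construct. The difference in share was not tested.

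XBP1 was higher with IL-4 in every pair of libraries. In IRES cells it stood at 64.5, 38.3 and 67.4 CPM in experiments 1, 2 and 3 without IL-4 and at 101, 56.1 and 97.5 CPM with it. The values in NIC1 cells were 69.4, 47.2 and 71.4 without and 86.8, 60.6 and 87.5 with IL-4, and for DNMAML 63.1, 44.8 and 72.5 against 110, 59.3 and 115. Experiment 2 was lowest in each group, so the groups overlapped although each pair rose. Group means were 56.8 ± 16.0 and 84.9 ± 25.0 CPM in IRES, 62.7 ± 13.4 and 78.3 ± 15.3 in NIC1, and 60.2 ± 14.1 and 94.7 ± 30.8 in DNMAML cells (SD, n = 3). With the block, log2 changes were 0.58 ± 0.0745 in IRES (edgeR adjusted p = 9.08e-06), 0.33 ± 0.0745 in NIC1 (0.00533) and 0.63 ± 0.0736 in DNMAML (2.25e-06), and without it the adjusted p were 0.616, 0.967 and 0.461.

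CREB3L2 (ENSG00000182158, chromosome 7, 137874979 to 138002067, minus strand) was lower with IL-4, and here the groups did not overlap. Its values in IRES cells were 87.3, 70.2 and 91.4 CPM without and 66.7, 59.1 and 67.6 CPM with IL-4. Those in NIC1 cells were 75.1, 72.7 and 78.9 without and 61.8, 59.6 and 63.3 with it, and those for DNMAML 86.7, 69.8 and 87.5 against 67.5, 61.6 and 60.1. Every library with IL-4 lay below every library without it, in all 3 constructs. With the block, the log2 changes were -0.36 ± 0.068, -0.29 ± 0.0687 and -0.36 ± 0.068 (edgeR adjusted p = 0.000855, 0.00633 and 0.000792). Without the block the adjusted p were 0.0713, 0.191 and 0.0647.

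CEBPG was modestly higher with IL-4, by 0.22 ± 0.0601 in IRES, 0.21 ± 0.0604 in NIC1 and 0.28 ± 0.0599 in DNMAML cells (log2, with the block, edgeR adjusted p = 0.0239, 0.0267 and 0.00301). Its levels in IRES cells went from 113, 83.5 and 112 to 131, 99.6 and 128 CPM in experiments 1, 2 and 3, in NIC1 cells from 102, 89.5 and 111 to 132, 100 and 120, and in DNMAML cells from 114, 92.7 and 102 to 140, 102 and 136. The direction was the same in all 9 pairs. Without the block the lowest edgeR adjusted p of the 3 constructs was 0.58.

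TRIB3 went from 18, 12.6 and 16.1 to 23.4, 15.6 and 21.3 CPM in IRES cells and from 18.9, 12 and 23.1 to 27.0, 17.3 and 26.8 CPM in DNMAML cells. With the block its log2 changes were 0.37 ± 0.108 (edgeR adjusted p = 0.0346) and 0.41 ± 0.104 (0.01197). In NIC1 cells it stood at 22.1, 14.2 and 19.4 CPM without and 24.5, 19.8 and 22.7 CPM with IL-4, and was not called. Each of the 9 pairs was higher with IL-4.

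PPP1R15A was lower with IL-4 in each pair. In IRES cells it went from 66.1, 94.1 and 83.1 to 48.1, 80.7 and 67.2 CPM, in NIC1 cells from 89.4, 100 and 87.7 to 71.7, 88.6 and 69.6, and in DNMAML cells from 63.7, 87.6 and 77.5 to 48.8, 74.6 and 61.9. The log2 changes with the block were -0.32 ± 0.0864, -0.28 ± 0.0853 and -0.31 ± 0.0867 (edgeR adjusted p = 0.0203, 0.0494 and 0.0245). Its direction with IL-4 was opposite to that of TRIB3, which also feeds back on this branch.

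MANF was called in DNMAML cells alone, where it went from 45.6, 30.2 and 55.5 to 56.9, 37.8 and 69.9 CPM (log2 change 0.33 ± 0.0775 with the block, edgeR adjusted p = 0.00685). Its levels went from 50.1, 30.9 and 55.6 to 53.3, 36.5 and 69.3 CPM in IRES cells and from 60.5, 40.5 and 60.6 to 60.0, 41.9 and 59.8 CPM in NIC1 cells. The difference in IL-4 response between NIC1 and DNMAML cells was -0.32 ± 0.109 for MANF and -0.31 ± 0.105 for XBP1 with the block, and neither passed over all genes (edgeR adjusted p = 0.998 for each). DDIT4 was lower in each construct, by -0.32, -0.34 and -0.26, without a call (adjusted p = 0.0853, 0.0611 and 0.1625 with the block).

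**Figure D4:**
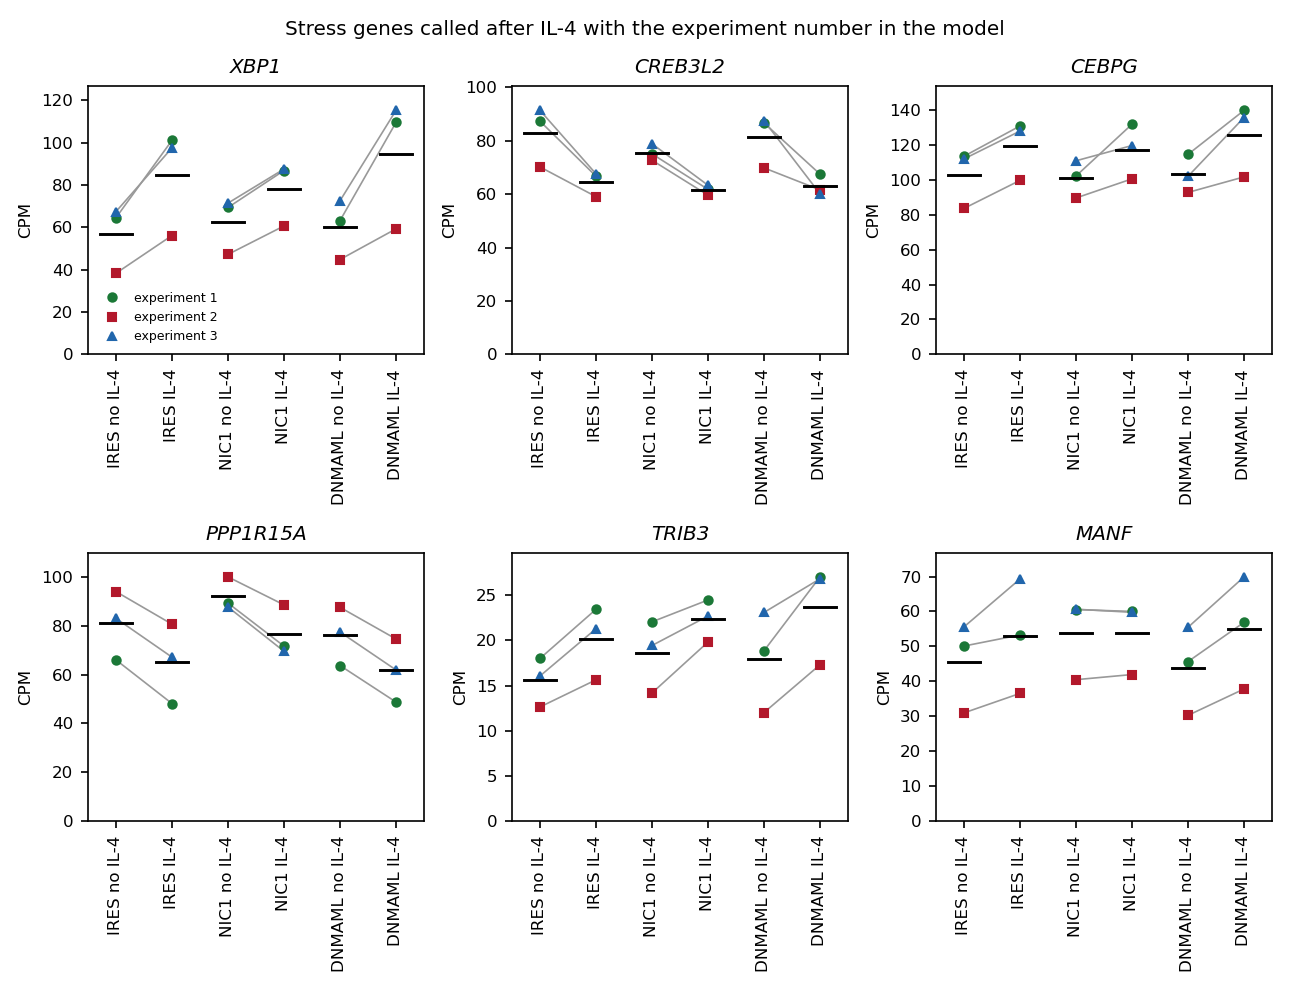
Level (CPM, y axis from 0) of the 6 genes called after IL-4 with the experiment number in the model, in each group (x axis), 1 point per library, with lines joining libraries of the same experiment and bars at the group mean (n = 3). XBP1, CEBPG and TRIB3 rise and CREB3L2 and PPP1R15A fall along every line, and MANF is flat in NIC1 cells (53.9 CPM on average in both states).

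Calls made with the block rested on 3 pairs, and several did not last. XBP1 in IRES and DNMAML cells and CREB3L2 in IRES cells stayed called under all 6 alternatives. Leaving out experiment 3 ended the calls of XBP1 (adjusted p = 0.0935) and CREB3L2 (0.0886) in NIC1 cells and of CREB3L2 in DNMAML cells (0.0945). PPP1R15A was lost in each construct without experiment 2, without experiment 3 and without the 2 libraries that stood apart (at most 0.355). TRIB3 in IRES cells was lost under 5 of 6 alternatives (without experiment 1, 2 or 3, without the 2 libraries and with DESeq2, at most 0.209) and in DNMAML cells under 3 (without experiment 1 or 2 and without the 2 libraries, at most 0.162). CEBPG was lost in IRES and NIC1 cells without experiment 1, 2 or 3 and in DNMAML cells without experiment 3 (at most 0.382). MANF was lost without experiment 2 or without the 2 libraries (at most 0.0986). Without those 2 libraries, 3 members were called in each construct.

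Chaperones, isomerases, degradation genes, sensors and amino acid enzymes other than MANF had no call after IL-4 in any construct. Without the block, the extremes by role in IRES cells were 0.22 (MANF) and -0.05 (HSP90B1) for chaperones, -0.01 (PDIA4) and -0.05 (PDIA3) for isomerases, and -0.11 (HERPUD1) for degradation genes. For sensors the lowest was -0.07 (ERN1), and for amino acid enzymes the highest was 0.22 ± 0.801 (PHGDH), whose error is set by the spread between experiments. In NIC1 cells all members lay between -0.34 (DDIT4) and 0.32 (XBP1), and in DNMAML cells between -0.37 (CREB3L2) and 0.66 (XBP1).

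Other genes of the integrated stress response did answer IL-4. Of 37 tested, 4 rose and 0 fell in each construct without the block, where 2.93%, 3.05% and 3.28% of all genes were called. ATF5, an ATF4-related factor, changed by 1.45 ± 0.114, 1.42 ± 0.114 and 1.48 ± 0.114 (log2) in IRES, NIC1 and DNMAML cells (edgeR adjusted p = 8.87e-07, 1.19e-06 and 7.31e-07). ATF3 changed by 1.15, 1.03 and 1.16, SLC7A5 by 0.87, 0.88 and 0.82, and SLC7A11 by 0.85, 0.98 and 0.80. WFS1, an ER membrane protein, was the gene called among 14 others of the sensor pathways, at 0.83, 0.87 and 0.76. With the block, 7 rose and 1 fell of the 37 in IRES, 10 and 2 in NIC1, and 8 and 1 in DNMAML cells. That is 21.6%, 32.4% and 24.3% of the list, against 9.04%, 8.8% and 9.95% of all genes. The neutral amino acid transporter SLC38A2 was the gene called lower in all 3, by log2 changes of -0.24, -0.19 and -0.27.

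Of the 52 other ER folding genes, 0 were called in the 3 constructs without the block, and 3, 2 and 3 with it. The latter were 5.77%, 3.85% and 5.77% of the list, below the 9.04%, 8.8% and 9.95% of all genes called with the block. EDEM3, a mannosidase of ER-associated degradation, was lower in each, by -0.36 ± 0.0569, -0.37 ± 0.0567 and -0.31 ± 0.0571 (log2, edgeR adjusted p = 0.000125, 8.72e-05 and 0.000624). UBE2J1 was higher in each, by 0.44, 0.32 and 0.48, and SSR3, a subunit of the translocon-associated complex, was higher in IRES and DNMAML cells, by 0.18 and 0.25.

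No member passed the test for either vector against the empty vector. For NIC1 against IRES, 0 members were called in unstimulated cells and 0 after IL-4, where 0.233% and 0.2% of all genes were called, and with the block again 0 and 0, against 5.37% and 5.44%. The smallest adjusted p with the block were those of MANF without IL-4 (0.26 ± 0.0781, edgeR adjusted p = 0.0586) and of ERN1 with IL-4 (0.24 ± 0.0836, adjusted p = 0.115). An unadjusted p under 0.05 was reached by 0 members in both comparisons without the block, and by 1071 and 895 of all 15037 genes. With the block 4 and 3 members reached it, against 2789 and 2455 of all genes, a larger share than that of the members. DESeq2 called 0 members in each. Leaving out experiment 1 or experiment 3 gave 1 member called for NIC1 against IRES without IL-4 with the block.

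For DNMAML against IRES, 0 members were called without or with IL-4, where 0% and 0% of all genes were called. With the block the members again gave 0 and 0, against 0.146% and 0.0931% of all genes. ATF4 was the highest of the transcription factors in both, by 0.20 ± 0.0756 (edgeR adjusted p = 0.435) and 0.22 ± 0.0755 (0.370) with the block. An unadjusted p under 0.05 was reached by 0 members without the block, and by 371 and 357 of all 15037 genes. With the block 3 members reached it in each comparison, against 1231 and 1166 of all genes, a share near that of the members. DESeq2 called 0 members.

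NIC1 and DNMAML, which are meant to act on Notch signalling in opposite directions, differed a little in some members. Without the block, 0 members were called, where 1.65% of all genes were called in the unstimulated state and 1.44% after IL-4. DESeq2 called 0 members in each. An unadjusted p under 0.05 was reached by 2028 and 1767 of all 15037 genes, and by 1 and 2 members. These were SHMT2 in both (0.16 ± 0.0701 and 0.18 ± 0.0699, edgeR adjusted p = 0.329 and 0.301) and ATF4 with IL-4 (-0.31 ± 0.113, adjusted p = 0.249). SHMT2 stood at 102, 102 and 93.7 CPM in NIC1 cells and 88.6, 87.4 and 90.3 in unstimulated DNMAML cells, and at 108, 107 and 101 against 93.5, 94.8 and 90.7 with it. The NIC1 libraries were above the DNMAML libraries in both states.

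With the block, 4 members were called without IL-4 and 5 with it, against 13.8% and 12.6% of all genes. These counts do not set the members apart from genes in general. PPP1R15A was higher in NIC1 cells in both states, by 0.29 ± 0.0854 (edgeR adjusted p = 0.0285) and 0.32 ± 0.0867 (0.0163). Without IL-4 it stood at 89.4, 100 and 87.7 CPM in NIC1 cells, just above 63.7, 87.6 and 77.5 CPM in DNMAML cells with no overlap. ERN1 was higher in NIC1 cells with IL-4, at 24.9, 35.1 and 26.8 against 20.6, 29.2 and 21.2 CPM (0.29 ± 0.0837, adjusted p = 0.0237). MANF was higher without IL-4, at 60.5, 40.5 and 60.6 against 45.6, 30.2 and 55.5 CPM (0.32 ± 0.0782, adjusted p = 0.00903). Each was higher in 3 of 3 experiments.

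With the block, CALR and CANX without IL-4 and HSP90B1 with IL-4 were called lower in NIC1 than in DNMAML cells. Without the block their edgeR adjusted p were 0.7955, 0.6176 and 0.7916, in that order. CALR stood at 3072, 1825 and 2815 CPM in NIC1 cells and at 3613, 1913 and 3875 in DNMAML cells, both unstimulated (-0.26 ± 0.0687 with the block, edgeR adjusted p = 0.0154). CANX, in the same state, stood at 980, 855 and 1034 against 1136, 910 and 1170 CPM (-0.16 ± 0.0533, adjusted p = 0.0474). With IL-4, HSP90B1 was at 1127, 796 and 1060 against 1273, 845 and 1485 CPM (-0.25 ± 0.0702, adjusted p = 0.0211). All 3 were lower in each experiment, and the gap was narrowest in experiment 2, where these genes were lowest.

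ATF4 and XBP1 with IL-4 were also called lower in NIC1 than in DNMAML cells, but in 2 of 3 experiments. ATF4 (ENSG00000128272, chromosome 22, 39519695 to 39522685) stood at 190, 194 and 192 CPM in NIC1 cells and 278, 192 and 245 CPM in DNMAML cells, a log2 change of -0.30 ± 0.0757 with the block (edgeR adjusted p = 0.0105). NIC1 libraries were nearly equal across experiments, while DNMAML libraries varied. XBP1 stood at 86.8, 60.6 and 87.5 against 110, 59.3 and 115 CPM (-0.24 ± 0.0724, adjusted p = 0.0285). In experiment 2 neither gene was lower in NIC1 cells.

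**Figure D5:**
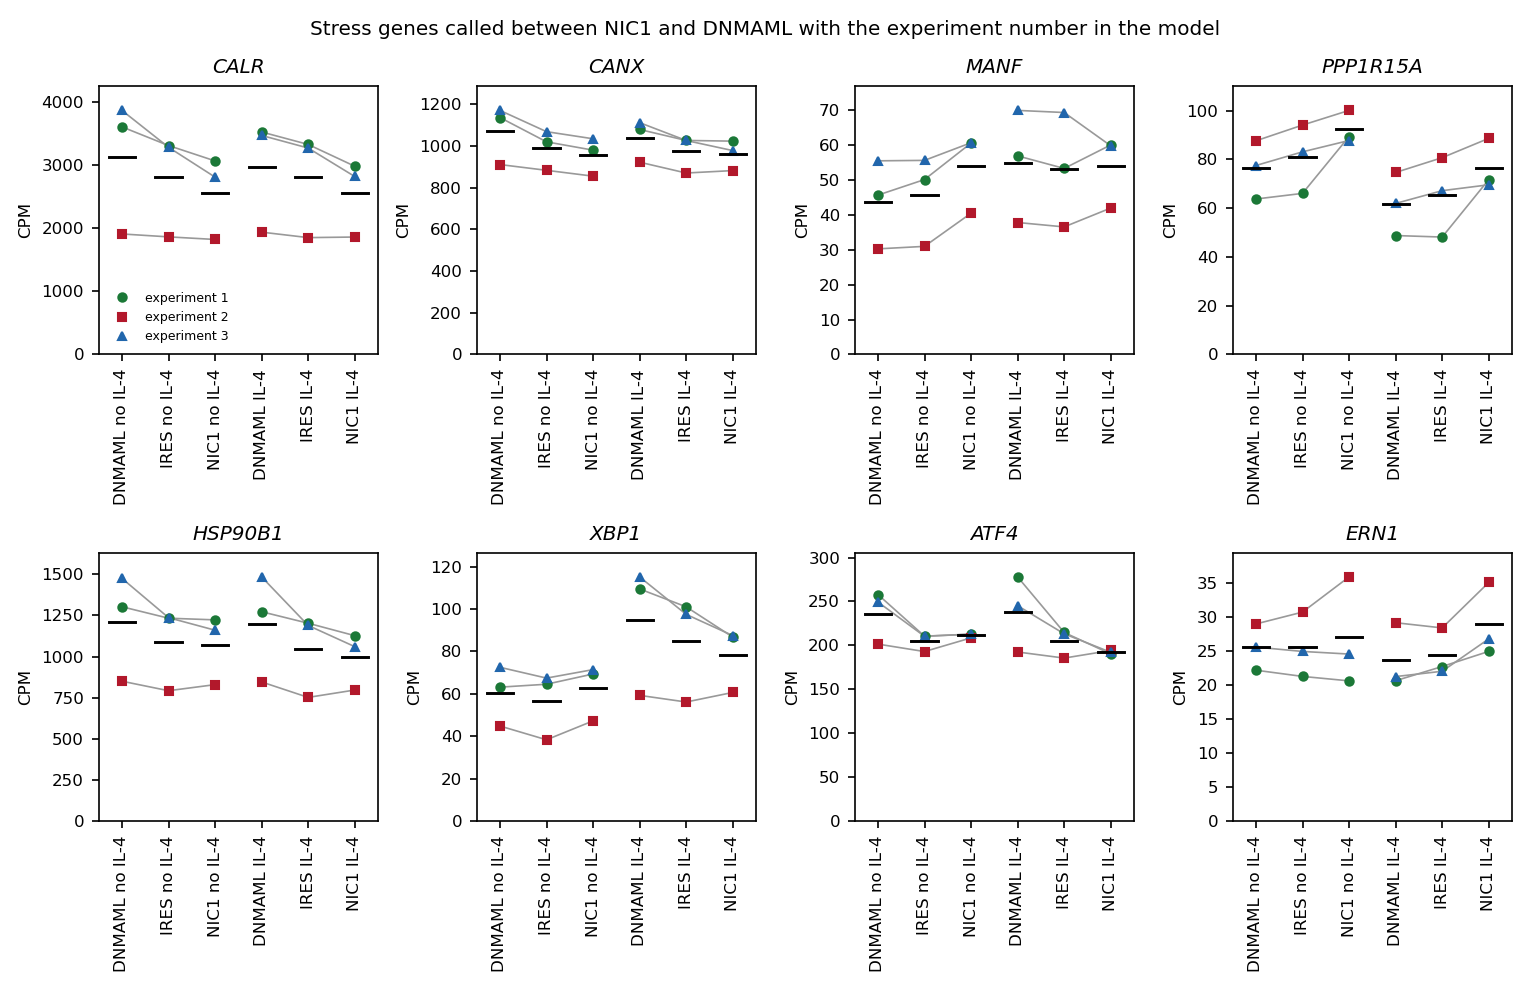
Level (CPM, y axis from 0) of the 8 genes called between NIC1 and DNMAML with the experiment number in the model, in each group (x axis, IRES drawn between DNMAML and NIC1), 1 point per library, lines joining libraries of the same experiment and treatment, bars at the group mean (n = 3). The mean of IRES lies between those of DNMAML and NIC1 for CALR, CANX, HSP90B1, PPP1R15A and ERN1 in both states, and in 1 state only for MANF, XBP1 and ATF4.

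Without IL-4, the count of 4 fell to 1 without experiment 1 and to 2 without experiment 2 or 3. With IL-4, the count of 5 fell to 1 without experiment 1, and to 0 without experiment 3 or without the 2 libraries that stood apart, 1 of which is the DNMAML library of experiment 3 with IL-4. Each of the 9 calls was lost under at least 2 of 5 alternatives, with adjusted p up to 0.425. T cell markers summed to 113 to 158 CPM in NIC1 cells and 75.2 to 95.7 CPM in DNMAML cells, and macrophage markers to 724 to 947 and 956 to 1153 CPM. Of the T cell genes, CD3D and CD3G were called higher in NIC1 cells without the block. Their log2 changes were 3.80 and 5.97 in unstimulated cells and 3.88 and 5.27 after IL-4. The part of these marker differences in the stress gene levels was not tested.

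No difference between constructs in the IL-4 response of a member passed the test. In 3 comparisons of the response (NIC1 with IRES, DNMAML with IRES, NIC1 with DNMAML), 0 members were called, as were 0%, 0% and 0% of all genes without the block and 0%, 0% and 0% with it. An unadjusted p under 0.05 was reached by 0 members without the block, and by 121, 98 and 214 of all 15037 genes. With the block 1, 0 and 2 members reached it, against 366, 237 and 610 of all genes. DESeq2 called 0 members. XBP1 had -0.25 ± 0.105 for NIC1 minus IRES with the block (edgeR adjusted p = 0.9996).

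Outside the set, 1 gene of these lists was called between NIC1 and DNMAML without the block. SLC7A11, the cystine transporter, was higher in NIC1 cells with IL-4 by 0.73 ± 0.163 on the log2 scale (edgeR adjusted p = 0.0368). No other gene of the ER folding, integrated stress response, eIF2 and sensor lists outside the set was called in a comparison of constructs without the block.

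With the block, 6 of 37 integrated stress response genes were called between NIC1 and DNMAML in unstimulated cells and 5 after IL-4 (16.2% and 13.5% of the list), and 5 and 3 of 52 ER folding genes (9.62% and 5.77%), against 13.8% and 12.6% of all genes. NUPR1, a stress-induced chromatin protein, was lower in NIC1 cells by -1.78 ± 0.34 and -2.56 ± 0.414 on the log2 scale (edgeR adjusted p = 0.00104 and 0.000188). ATF3 was higher by 0.73 ± 0.119 and 0.59 ± 0.109, and SLC7A11 by 0.55 ± 0.124 and 0.73 ± 0.113. EDEM3 was higher by 0.34 and 0.29 and EDEM2 lower, by -0.21 and -0.20, while in the sensor pathways CREB3L1 was higher by 0.62 and 0.84 and MAP3K5 (ASK1, a kinase downstream of IRE1) by 0.21 and 0.37. Of 19 cytosolic and mitochondrial heat shock genes listed, HSPA1B (0.43), HSPA8 (0.30), HSPH1 (0.39), HSP90AA1 (0.19), DNAJA1 (0.24) and STIP1 (0.37) were higher in unstimulated NIC1 cells. HSPA8 (0.24), HSPH1 (0.33) and STIP1 (0.44) were higher after IL-4, and none was called lower in either state. For NIC1 against IRES with the block, JDP2 (-0.31), SARS1 (0.26) and SLC1A4 (0.29) were called in unstimulated cells, and NUPR1 (-1.89), SLC7A11 (0.55) and MAP3K5 (0.32) after IL-4. For DNMAML against IRES, 0 genes of these lists were called with the block.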

How the data were processed

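Per the submitters' processing notes, reads went through FastQC, Trimmomatic, HISAT2 and HTSeq on GRCh38.p12, and DESeq2 is also named. The authors deposited whole-number counts of reads per Ensembl gene for 18 libraries. For versions, annotation and strand setting, the entry is: not given in the sources used here. Rows that name no gene held 23.8% to 30.9% of a library and were left out.

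Symbols were attached to 56948 of 58051 gene IDs, with coordinates from GENCODE 29. Genes were filtered with filterByExpr, scaled by TMM and tested with edgeR 4.0.16 (robust quasi-likelihood F test, limma 3.58.1, R 4.3.3), with Benjamini-Hochberg adjustment over 15037 genes at 0.05. The model had the 6 group means and 12 residual degrees of freedom, and a further model added the experiment number as a block. Standard errors are the log2 change divided by the root of F. Shares of the sum of squares used log2 CPM with a prior count of 2. The script was tested on simulated data. Alternatives were DESeq2 1.42.0, other scaling, no filter, and leaving out libraries or experiments. Other software was Python 3.11.15, pandas 2.3.3, matplotlib 3.10.9 and the R package data.table (version 1.17.8).

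Libraries with the same number deviated together from their group means. The correlation was 0.206 to 0.759 over 45 same-number pairs (median 0.466). Over 90 pairs of other numbers and groups the median was -0.395 and the highest 0.354, with 29 over 0.1. Deviations from a group mean sum to 0, so the median of the other pairs is no independent contrast. All 45 same-number pairs were over 0.1, and the numbers were taken to pair the libraries. The 5, 4 and 6 members called after IL-4 with the block are therefore printed beside the 0 without it. Chi-square over degrees of freedom between libraries of a group was 5.29 to 46.1, so none was a copy. The labels do not call the experiments separate cultures. The p-values therefore rest on differences among libraries that could be technical.

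The members and all gene lists (pathways, heat shock, mitochondrial, macrophage, T cell, B cell, fibroblast, epithelial and erythroid markers) were chosen with earlier results of these data known. Members got full values if called in either model or at the extreme of their role. Up to 3 called genes a direction were named from other lists, except for heat shock genes between NIC1 and DNMAML.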

Additional observations from a re-analysis of the deposited data

How the results depend on the processing

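Without the block, 0 members were called in all 12 comparisons between groups. The replicate block gave 5, 4 and 6 members after IL-4 in IRES, NIC1 and DNMAML cells, and 4 and 5 between NIC1 and DNMAML without and with IL-4. It changed no other count. DESeq2 and the fit with no filter on low counts each gave 1 member after IL-4 in IRES and in DNMAML cells. Leaving out 1 library gave 0 to 1 members after IL-4 in IRES and in DNMAML cells and 0 to 1 between NIC1 and DNMAML with IL-4, with 1 each without the experiment 2 library of IRES lacking IL-4, of DNMAML lacking IL-4, and of DNMAML with IL-4, in that order. With the block, leaving out 1 experiment gave 2 to 4 members after IL-4 in IRES, 0 to 4 in NIC1 and 3 to 6 in DNMAML cells. It gave 0 to 1 for NIC1 against IRES without IL-4, and 1 to 2 and 0 to 4 between NIC1 and DNMAML without and with IL-4. Without the 2 libraries with the most genes, the block gave 3 in IRES, 3 in DNMAML and 0 between NIC1 and DNMAML with IL-4, and experiment 3 against 1 gave 0. A block for each construct and number, added after seeing the data, gave 8 in NIC1 cells. Experiment 3 against 1 gave 0 to 4 members without single libraries. Experiment 2 against 1 gave 32 under each of 22 alternatives. The cause of these shifts was not tested, other than that leaving libraries out leaves fewer samples. No direction reversed. Counts of CHAC1, PHGDH and PSAT1 were low in experiment 2, which limits their precision.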

Other observations

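Genes outside the set whose searched start-site windows hold either form of the ER stress response element numbered 34, of which 18 were tested. Between experiments 2 and 1, 8 of these were lower and 6 higher, with a median log2 change of -0.06. The 10 members with either element were all lower, with a median of -0.61, where 30 of all 35 members and 23.1% of all genes were lower, so the count does not set members with an element apart from the other members. Between experiments 3 and 2, which share libraries with that comparison, 8 of the 18 were higher and 4 lower, and all 10 members were higher. These counts are given as a description, with no test.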
